A study of Mus musculus with 15 samples.

Results

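The 10 genes Neurod1, Neurod2, Neurod6, Bhlhe22, Sox4, Sox11, Sox5, Mef2a, Mef2d and Nfia encode transcription factors that act while cortical neurons are born, mature and take on a layer identity, and they were taken by symbol from the 26145 genes listed. Their transcripts were counted as unique molecular identifiers (UMIs) in single cells of the mouse prefrontal cortex (PFC), captured in droplets with the 10X Chromium platform in 15 libraries. The comparisons asked how their levels differed between neuronal clusters, between mice at postnatal day 21 (P21) and adult mice (P60), and between adult mice that had taken cocaine or saline. All mice were male C57BL/6N, and each library held the tissue of 2 pooled mice.

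The 3 P21 libraries came from mice of 3 weeks with no treatment in the labels, and the methods name 4 such mice, so these libraries may share animals. The 12 P60 libraries came from mice labelled as 8 to 10 weeks old. The paper has catheters implanted at P60, before self-administration, so tissue was taken later than P60, and latest at 15 days of withdrawal. These mice had worked for intravenous saline (6 libraries) or cocaine (6 libraries). Of each, 2 libraries were taken during maintenance of self-administration, 48 h into withdrawal and 15 days into withdrawal. Saline mice had therefore been through surgery, training and self-administration that P21 mice had not. No library held cells of both ages, so age, this history and the preparation of the libraries cannot be told apart. Clusters are those of the deposited table of cells (Exc for excitatory, Inhib for inhibitory), in which P21 cells had been given the name of the P60 cluster they correlated with. The paper made its tests of age and cocaine on broader excitatory subtypes with names of the same style. Those names do not carry over: the paper marks its Exc-13 by Foxp2, of which Exc_13 here held very little.

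The libraries held 8375172 to 42892922 UMIs, with medians of 3426 to 11334.5 UMIs per cell, and 35360 cells were retained. Excitatory neurons numbered 5934 at P21 and 6707 in saline P60 libraries, and inhibitory neurons 962 and 563. Slc17a7, the vesicular glutamate transporter, was at 302 to 669 CPM (UMI counts scaled to one common total for every sum of cells) in the summed excitatory neurons of a library, and Gad1, which makes GABA, was at 840 to 2336 CPM in the inhibitory neurons. The labels name the nucleus accumbens as tissue beside the PFC. In inhibitory neurons Drd2, a dopamine receptor of striatal neurons, did not exceed 7.42 CPM, while Rgs9, another striatal marker, reached 25.1 CPM. The 5 striatal markers listed summed there to 26.2 to 45.8 CPM at P21 and 18.9 to 30.9 CPM in saline P60 libraries. Whether striatal tissue was included was not tested. At most 40 cell barcodes were shared by any 2 libraries, and the class and the cluster of a cell differed for 459 P21 and 33 P60 cells. The first P21 library stood apart from the other 2 in its excitatory sum, with Slc17a7 at 669 CPM (404 and 406 in the others), Nrgn at 3169 CPM (1162 and 1134) and the endothelial gene Cldn5 at 35.3 CPM (11.2 and 6.53). Without it the changes with age called in the sums of the 2 neuronal classes were still called, at -1.08 for Sox4 and -1.43 for Nfia in excitatory and -1.65 for Sox4 and 1.21 for Sox5 in inhibitory neurons (log2 fold change).

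Neurod1, Neurod2, Neurod6 and Bhlhe22 are basic helix-loop-helix (bHLH) factors, which pair with E proteins, bind E-boxes and are held back by Id and Hes proteins. The Neurod factors and Bhlhe22 are known for the differentiation of glutamatergic neurons of the cortex and hippocampus. Sox4 and Sox11 are high-mobility-group factors of newborn neurons, and Sox5, of another Sox group, acts in the specification of deep-layer projection neurons. Mef2a and Mef2d are calcium-regulated factors of synapse development that are repressed by class IIa histone deacetylases, and Nfia, a nuclear factor I gene, is known for the switch of progenitors to glia and is also used in neurons.

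In the NCBIM37 (mm9) annotation used for the counts, Neurod1 (ENSMUSG00000034701) lies at chr2:79292678-79296908 (minus strand), Neurod2 (ENSMUSG00000038255) at chr11:98186729-98190962 (minus), Neurod6 (ENSMUSG00000037984) at chr6:55627812-55631257 (minus) and Bhlhe22 (ENSMUSG00000025128) at chr3:17954325-17957509 (plus). Sox4 (ENSMUSG00000076431) lies at chr13:29040788-29045582 (minus), Sox11 (ENSMUSG00000063632) at chr12:28025562-28027574 (minus) and Sox5 (ENSMUSG00000041540) at chr6:143776945-144730497 (minus). Mef2a (ENSMUSG00000030557) lies at chr7:74376049-74517744 (minus), Mef2d (ENSMUSG00000001419) at chr3:87946294-87976008 (plus) and Nfia (ENSMUSG00000028565) at chr4:97439425-97868605 (plus). Neurod1 lies inside the annotated span of Cerkl on the same strand, so its counts could be split with that gene. Gm17419 lies at the 3' end of Sox4 and 1700113A16Rik at that of Mef2d, each on the opposite strand. The model of Sox11 spans 2013 bases against 8451 in RefSeq, and Sox11 held only 127 UMIs in all cells.

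The 250 bases before the annotated start are shown for the 3 Neurod genes, which were high together in excitatory neurons, and for Sox4 and Nfia, which were lower at P60. RefSeq windows of build GRCm38.p6 were found for 9 of the 10 genes, Bhlhe22 having no entry in the table used. Their positions belong to another build than the gene positions above, and none was converted. The windows lie at chr2:79456637-79456886 (Neurod1, minus), chr11:98329646-98329895 (Neurod2, minus), chr6:55681264-55681513 (Neurod6, minus), chr13:28953700-28953949 (Sox4, minus) and chr4:97581693-97581942 (Nfia, plus). They are written 5' to 3' on the strand of the gene, and the capitals mark the E-box CANNTG, the letters that bHLH dimers bind.
Neurod1: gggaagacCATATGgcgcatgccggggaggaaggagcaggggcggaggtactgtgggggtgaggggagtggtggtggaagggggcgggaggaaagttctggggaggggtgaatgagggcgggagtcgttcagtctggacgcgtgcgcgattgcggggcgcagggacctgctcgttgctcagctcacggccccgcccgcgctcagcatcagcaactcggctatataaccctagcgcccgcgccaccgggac
Neurod2: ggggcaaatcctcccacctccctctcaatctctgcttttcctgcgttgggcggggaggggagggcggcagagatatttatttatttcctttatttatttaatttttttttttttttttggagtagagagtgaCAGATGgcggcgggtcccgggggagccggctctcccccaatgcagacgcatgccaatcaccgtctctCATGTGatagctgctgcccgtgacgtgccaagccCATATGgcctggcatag
Neurod6: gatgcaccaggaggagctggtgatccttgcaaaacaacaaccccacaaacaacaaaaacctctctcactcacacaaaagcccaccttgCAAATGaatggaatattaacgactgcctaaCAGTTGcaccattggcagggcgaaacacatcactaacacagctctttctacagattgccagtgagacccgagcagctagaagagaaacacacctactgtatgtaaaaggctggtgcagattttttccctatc
Sox4: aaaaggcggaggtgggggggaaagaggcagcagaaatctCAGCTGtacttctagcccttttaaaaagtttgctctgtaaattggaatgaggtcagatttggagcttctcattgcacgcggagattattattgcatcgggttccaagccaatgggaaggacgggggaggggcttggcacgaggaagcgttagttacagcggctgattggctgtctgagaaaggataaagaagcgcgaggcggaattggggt
Nfia: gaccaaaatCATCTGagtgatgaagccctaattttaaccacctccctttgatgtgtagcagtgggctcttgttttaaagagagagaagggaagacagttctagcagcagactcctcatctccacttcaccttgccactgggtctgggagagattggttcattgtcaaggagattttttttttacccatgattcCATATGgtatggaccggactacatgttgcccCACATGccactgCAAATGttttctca

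Neurod1 and Sox4 had 1 E-box in the window, Neurod6 had 2, Neurod2 had 3 and Nfia had 4, and across all 32851 RefSeq windows of this length 66.2% held at least 1. The letters CAGATG or their reverse complement, an E-box found in Neurod target sites, were present in Neurod2 and Nfia and in 14.4% of all windows. CAGCTG, an E-box that reads the same on both strands, was present in Sox4 and Sox11 and in 13% of all windows, and it is counted again under CANNTG. No window of the 9 held ATTGTT or its reverse complement, a Sox-type motif present in 9.42% of all windows. These matches are descriptions of letters only.

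Levels across clusters were described in the 12 P60 libraries as CPM of the sum of UMIs of a cluster in a library, given as mean ± SD over those libraries that held 10 or more cells of it. No test was made on them, since the clusters were formed from the same cells. A gene's neighbours in the order of clusters were said to stand apart where their means differed by more than the larger SD.

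Neurod1, Neurod2, Neurod6 and Bhlhe22 were higher in excitatory than in inhibitory neurons in 12 of 12 P60 libraries. The ratio of the mean levels was 19.2 for Neurod1 (36.0 ± 5.06 against 1.88 ± 2.197 CPM), 15.3 for Neurod2 (75.9 ± 7.13 against 4.96 ± 5.57 CPM), 19.97 for Neurod6 (483.8 ± 40.0 against 24.2 ± 27.8 CPM) and 6.08 for Bhlhe22 (20.6 ± 5.81 against 3.39 ± 3.15 CPM, SD, n = 12). Mef2d was higher in excitatory neurons in 12 of 12 libraries too, but only 1.44-fold (70.9 ± 7.96 against 49.3 ± 9.70 CPM), and Sox4 in 11 of 12. Mef2a was lower in excitatory neurons in 12 of 12 libraries (61.2 ± 5.96 against 85.5 ± 11.9 CPM), Sox5 in 9 of 12 and Nfia in 10 of 12. Among sums of whole classes, several members had their highest level outside neurons: Sox4 in newly formed oligodendrocytes (230 ± 85.2 CPM, n = 11), Sox5 in oligodendrocyte precursors (162 ± 29.3 CPM, n = 11), Nfia in oligodendrocyte precursors (255 ± 60.8 CPM, n = 11) and astrocytes (237 ± 38.1 CPM, n = 11), and Mef2a in microglia (135 ± 28.5 CPM, n = 12). In the single neuronal cluster Exc_20 Nfia was higher still (289 ± 44.8 CPM, n = 8).

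Among the 26 excitatory clusters, Neurod1 ran from 84.6 ± 16.95 CPM in Exc_11 and 82.3 ± 21.01 CPM in Exc_1 (n = 11 each) down to 1.13 ± 1.98 CPM in Exc_13 (n = 12), a ratio of 75.1. Its order held 1 clear step, between Exc_14 (15.98 CPM) and Exc_22 (8.36 CPM), below which lay Exc_12, Exc_13, Exc_18 to Exc_22 and Exc_25. Exc_18 to Exc_20 were the clusters with the layer 6 markers Foxp2, Syt6 and Tle4 (170, 106 and 141 CPM in Exc_20), and Exc_21 carried the layer 5 markers Tshz2 and Etv1 (2066 and 696 CPM) together with Tle4 (193 CPM) and little Foxp2 and Syt6 (37.1 and 4.32 CPM). In Exc_1 to Exc_5, which carried the upper-layer markers Cux2 (83.1 to 238 CPM) and Calb1 (262 to 322 CPM), Neurod1 was at 43.4 to 82.3 CPM.

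Neurod2 and Neurod6 showed other orders. Neurod2 spanned only 45.5 ± 19.6 CPM in Exc_2 to 108 ± 19.2 CPM in Exc_18, and 0 of its 25 neighbouring pairs stood apart. Its lowest levels after Exc_2 were in Exc_4 (48.0 CPM), Exc_9 (49.2 CPM) and Exc_5 (49.8 CPM), and Exc_9 also carried Cux2 (129 CPM) and Calb1 (279 CPM). Neurod6 was at 772 ± 109 CPM in Exc_24 (n = 11) and 726 ± 113 CPM in Exc_21 (n = 12), and at 180 to 294 CPM in Exc_1 to Exc_5. In Exc_8 to Exc_11, which also carried Cux2 (52.7 to 129 CPM) and Calb1 (138 to 279 CPM), Neurod6 was at 370 to 567 CPM. Its lowest cluster was Exc_26 (81.7 ± 24.7 CPM, n = 8), which stood apart from Exc_4 (180 ± 42.5 CPM) and carried Bcl11b, Fezf2 and Pou3f1, factors of layer 5 neurons, at 279, 244 and 98.1 CPM.

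Bhlhe22 was highest in a few upper-layer clusters. Its level was 95.5 ± 13.6 CPM in Exc_4, 58.1 ± 8.52 CPM in Exc_3 and 38.3 ± 10.6 CPM in Exc_5 (n = 12 each), and each of these stood apart from the next. In Exc_18, Exc_19 and Exc_20, Bhlhe22 was at 0.936, 1.05 and 1.09 CPM. In the same 3 clusters Nfia was highest, with 289 ± 44.8 CPM in Exc_20 (n = 8), 164 ± 41.6 CPM in Exc_18 (n = 7) and 123 ± 24.4 CPM in Exc_19 (n = 12). It was next in Exc_26 (93.8 ± 27.7 CPM, n = 8), where Bhlhe22 was at 20.98 CPM. The remaining 22 excitatory clusters lay at or below 46.1 CPM of Nfia.

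Sox5 divided the excitatory clusters into a high group of 8 (Exc_12 to Exc_14, Exc_18 to Exc_21 and Exc_24), at 59.5 to 87.2 CPM, and the rest, at 7.86 to 38.5 CPM, and the only step apart in its order lay between them. Sox5 was also uneven among interneurons, at 79.4 ± 25.7 CPM in Inhib_7 (n = 9) and 76.8 ± 30.8 CPM in the Vip cluster Inhib_9 (n = 6), but at 1.35 ± 3.30 CPM in the Sst cluster Inhib_2 (n = 6). Mef2a was highest in the layer 6 clusters Exc_18 to Exc_20 (96.9 to 102 CPM) and in Inhib_7 (129 ± 26.97 CPM), and Mef2d ranged only from 47.9 to 88.7 CPM in excitatory clusters. For neither did any neighbouring pair stand apart. Sox4 was low in every excitatory cluster, from 2.98 ± 3.87 CPM in Exc_20 to 21.1 ± 7.76 CPM in Exc_11, and Sox11 did not exceed 1.26 CPM.

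**Figure D1:**
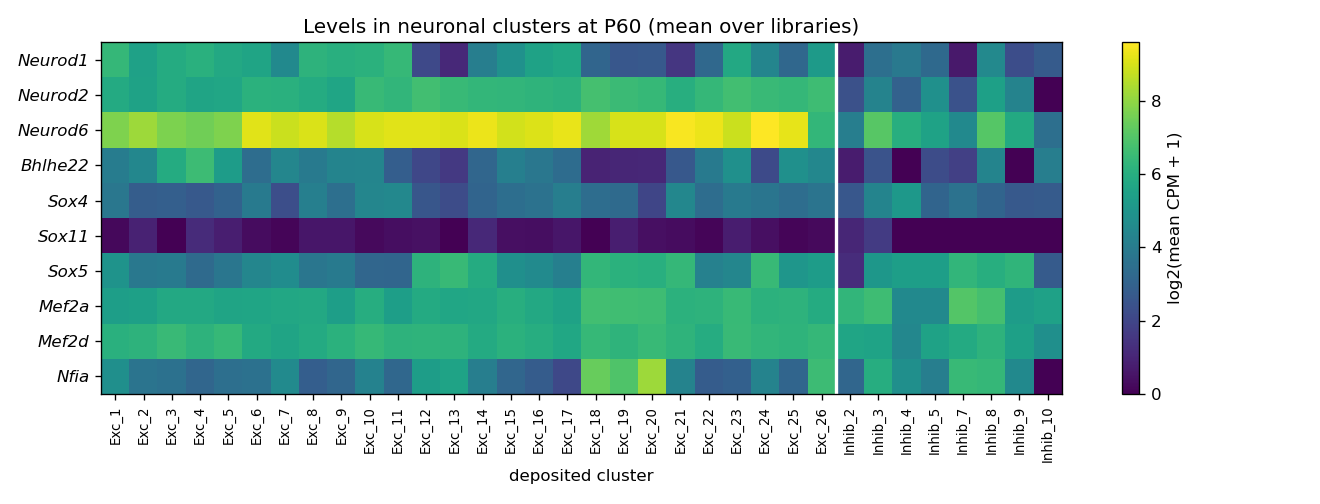
Mean level of the 10 genes (rows) in each excitatory and inhibitory cluster (columns) of the 12 P60 libraries, as log2(mean CPM + 1) in colour. Nfia was brightest in Exc_18 to Exc_20, Bhlhe22 in Exc_3 to Exc_5, Neurod6 was high in excitatory clusters and lowest among them in Exc_1 to Exc_5, Exc_18 and Exc_26, and Sox11 was dark throughout.

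Across 33 neuronal clusters with at least 50 P60 cells, the 2 members most alike were Neurod2 and Neurod6 (Pearson r of log2(CPM + 1) of 0.92), followed by Neurod2 with Mef2d (0.76), Neurod1 with Bhlhe22 (0.69), Neurod6 with Mef2d (0.65) and Sox5 with Nfia (0.62). Bhlhe22 and Nfia ran opposite to each other (-0.52). Among 10643 other genes that reached 10 CPM in a cluster, those most like Neurod2 were Slc17a7 (0.97) and Sv2b (0.95), both genes of synaptic vesicles. Those most like Neurod6 were Fhl2 and Llph (0.93 each), like Neurod1 Mtap9 (0.92) and Exd2 (0.89), like Bhlhe22 Fam19a1 (0.84) and Megf9 (0.83), and like Nfia Dhrs3 (0.81) and Fam57b (0.80). Sox5 was most like Ptpre and Drd1a (0.75 each), Mef2a like Ndst1 (0.81) and Tmem184c (0.75), Mef2d like Sirpa and Hivep2 (0.90 each), and Sox4 like Srpk2 and Mcrs1 (0.74 each). The few UMIs of Sox11 were most like Kcnj8 (0.67) and Ddx39b (0.62). The 33 clusters are of both classes, so a gene's difference between excitatory and inhibitory neurons enters each r. Neurod2, Neurod6 and Slc17a7 were all far higher in the excitatory clusters, and r within excitatory clusters alone was not computed. Clusters share libraries and differ in depth, and these values are descriptions.

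The share of single cells with a UMI of a Neurod gene differed by gene and by depth. Neurod6 had a UMI in 87.7% of excitatory neurons at P21 (median depth 8372 UMIs) and in 92.0% at saline P60 (12500 UMIs), against 3.99% and 4.58% of endothelial cells (3378 and 3891 UMIs), which should lack the gene. With every cell thinned to 2000 UMIs, leaving out 49 shallower P21 and 0 P60 excitatory neurons, the shares were 54.6% and 56.1%. In the thinned cells, 1 of the 3 Neurod genes was seen in 52.7% of neurons at P21 and 52.6% at P60, 2 of them in 10.9% and 11.5%, and all 3 in 0.408% and 0.552%. Before thinning Neurod2 had a UMI in 49.8% and 56.9% of excitatory neurons and Neurod1 in 18.05% and 31.3%. Joint detection was counted in thinned cells only, so it does not show how often the 3 genes are expressed together.

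For the comparison of ages, the UMIs of all cells of a class in a library were added up, and the 3 P21 libraries were compared with the 6 saline P60 libraries with edgeR's quasi-likelihood test. A gene was called where its Benjamini-Hochberg adjusted p over all genes tested was below 0.05 and it changed by more than 1.5-fold, and fold changes are P60 over P21. In excitatory neurons Sox4 and Nfia fell, and 7 other members, among them the 3 Neurod genes, did not pass. Of the 9 members tested, 2 were called, both lower at P60, where 19.3% of all 13245 genes tested were called (8.18% higher and 11.1% lower), so the share of members called was near that of all genes. The median log2 fold change was -0.28 over the 9 members and -0.0048 over all genes tested.

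Sox4 was at 24.8, 23.0 and 23.8 CPM in the P21 libraries, and its lowest, median and highest saline P60 values were 6.77, 10.9 and 12.9 CPM. Every P60 library thus lay below every P21 library, and the P21 libraries were close to each other. The log2 fold change of Sox4 was -1.11 ± 0.14 (SE, adjusted p = 8.13e-05 by edgeR), a 2.16-fold fall. The share of excitatory neurons with a Sox4 UMI was 17.9% at P21 and 12.6% at P60, and 4.47% and 2.37% in cells thinned to 2000 UMIs. Mature oligodendrocytes (median depth 4820 and 3287 UMIs) had thinned shares of 3.14% and 0.257%, so a background that differs between the ages is not set apart by these shares, and its part was not tested.

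Nfia was at 66.2, 62.3 and 79.2 CPM at P21, and its saline P60 values ran from 14.5 through a median of 23.7 to 37.2 CPM. The groups did not overlap, and the highest P60 value was from a library of 15 days of withdrawal. Its log2 fold change was -1.41 ± 0.20 (SE, adjusted p = 0.000375), a 2.65-fold fall. In a fit with a term for the cluster the log2 fold change was -0.33 (adjusted p = 0.00629 by limma), under the 1.5-fold limit, while the 12 excitatory clusters tested for Nfia ranged from -1.51 in Exc_9 to -0.11 in Exc_20.

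The clusters with most Nfia were a larger share of the excitatory neurons at P21. Exc_20 made up 8.37% ± 0.377 of them at P21 and 1.19% ± 0.662 in saline P60 libraries, and Exc_18 6.09% ± 1.53 and 1.44% ± 0.871 (SD, n = 3 and 6), with no overlap between ages in either. Exc_19 was at 7.72% and 6.08% and overlapped. The summed layer 6 markers Foxp2, Syt6 and Tle4 moved with it, at 129 to 146 CPM in P21 and 33.8 to 56.5 CPM in P60 libraries. The sums of the other layer markers were also lower without overlap, at 349 to 385 and 176 to 296 CPM for layer 5, 204 to 288 and 106 to 190 CPM for layer 2/3 and 20.1 to 35.0 and 2.17 to 8.62 CPM for layer 6b. Within the layer 2/3 list Calb1 was called lower (-0.94) and Otof higher (0.71). The part of these shares in the fall of Nfia was not tested. Within Exc_20, Nfia was at 332 ± 39.1 CPM at P21 (n = 3) and 307 ± 45.3 CPM at P60 (n = 4).

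**Figure D2:**
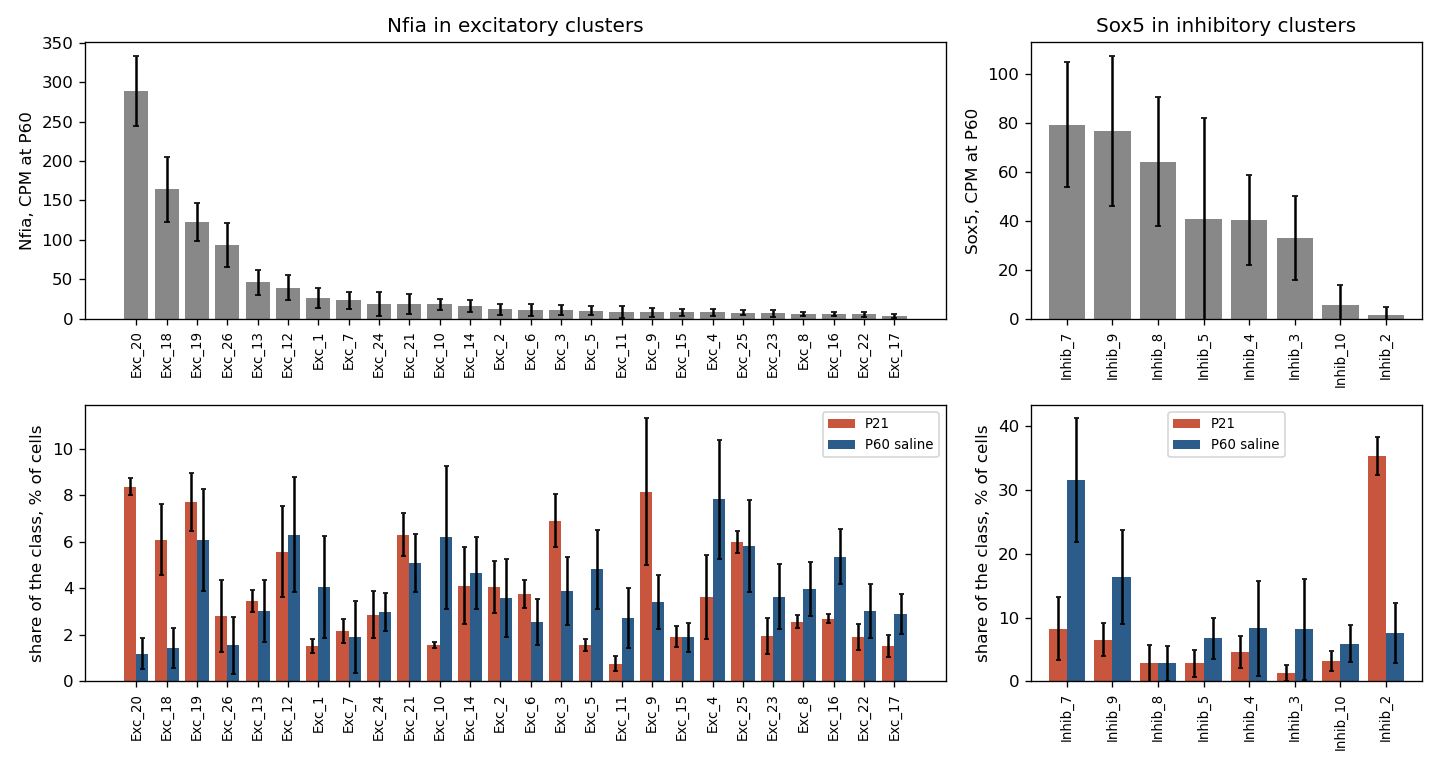
Upper panels give the mean level of Nfia in excitatory and of Sox5 in inhibitory clusters at P60 (CPM), and lower panels the share of each cluster among the cells of its class at P21 and in saline P60 libraries (%). Bars are means over libraries and whiskers SD. Exc_20, with the most Nfia, was 8.37% of excitatory neurons at P21 and 1.19% at P60, and Inhib_2, with the least Sox5, 35.3% and 7.60% of inhibitory neurons.

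The Neurod genes showed small differences between the ages. Neurod1 was at 25.8, 28.0 and 27.7 CPM at P21 and at 29.8 (lowest), 35.5 (median) and 48.1 (highest) CPM at P60, with no overlap. Its log2 fold change was 0.49 ± 0.12 (adjusted p = 0.00666), 1.40-fold and so not called. Within excitatory clusters its mean was higher at P60 in 15 of 26 and lower in 11. The median log2 fold change over the 17 clusters tested was 0.10, and none of them was called. The part of the cluster shares in the class value of Neurod1 was not tested. Neurod2 was at 82.9, 86.5 and 92.9 CPM at P21 and at 62.8, 74.1 and 81.9 CPM at P60, again without overlap (log2 fold change -0.18 ± 0.08, adjusted p = 0.104).

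Neurod6 was at 399.7, 504 and 481 CPM at P21, and its saline P60 values ran from 427 through a median of 469.5 to 561 CPM. The ages overlapped, with a log2 fold change of 0.12 ± 0.11 (adjusted p = 0.393). Bhlhe22 was at 22.0, 30.1 and 29.1 CPM at P21 and at 16.8, 18.2 and 27.1 CPM at P60, and the highest P60 library lay inside the P21 range. Its log2 fold change was -0.42 ± 0.15 (adjusted p = 0.0362, 1.34-fold), and with a term for the cluster it was -0.59 (adjusted p = 1.14e-05) and passed.

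Sox5 was at 42.8, 50.1 and 52.3 CPM at P21 and at 32.1, 34.1 and 42.2 CPM at P60, and the groups did not quite touch. Its log2 fold change was -0.36 ± 0.10 (adjusted p = 0.0135, 1.29-fold), and with a term for the cluster it was 0.0031 (adjusted p = 0.979). Mef2d was at 83.3, 93.5 and 88.8 CPM at P21 and at 56.9, 71.5 and 82.1 CPM at P60 without overlap (-0.28 ± 0.10, adjusted p = 0.0317, 1.21-fold). Mef2a overlapped, at 57.3, 72.3 and 70.8 CPM against 50.4, 59.0 and 73.9 CPM (-0.09 ± 0.11, adjusted p = 0.537). Sox11, with 30 UMIs in excitatory neurons at each age, was too low for the test.

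Markers of other cells and of handling also differed between the ages in the excitatory sums. The 28 non-neuronal markers summed to 106 to 287 CPM at P21 and 29.2 to 85.5 CPM in saline P60 libraries, all 28 had a lower mean at P60, and none was at 0 in a whole age group. Without neurons that held 2 or more UMIs of these markers, the log2 fold change was -1.04 for Sox4 (adjusted p = 0.000272) and -1.27 for Nfia (adjusted p = 0.000971). Neurons with fewer than 2 such UMIs were kept, so this cut does not remove the RNA of other cells, and its part was not tested. The 3 inhibitory markers summed to 8.85 to 10.5 CPM at P21 and 0.363 to 4.46 CPM at P60 in the same sums, and all 3 were called lower, with Gad2 at a log2 fold change of -2.04, as were the 3 inhibitory subtype markers tested (Pvalb, Sst and Vip, median -2.10). Genes induced by dissociation summed to 844 to 913 CPM at P21 and 344 to 545 CPM at P60, but of these 8 genes 5 were called lower and 2 higher, Hspa1b by 2.32 (adjusted p = 0.000129). The 5 striatal neuron markers summed to 71.85 to 85.8 CPM at P21 and 43.8 to 61.5 CPM at P60, without overlap. Of the 3 tested, Ppp1r1b was called lower (-0.86, adjusted p = 0.000228 by edgeR) and the others were not called. Ppp1r1b was at 83.3 to 160 CPM in the layer 6 clusters Exc_18 to Exc_20 at P60. The part of the inhibitory and striatal markers and of the dissociation genes in the results was not tested.

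**Figure D3:**
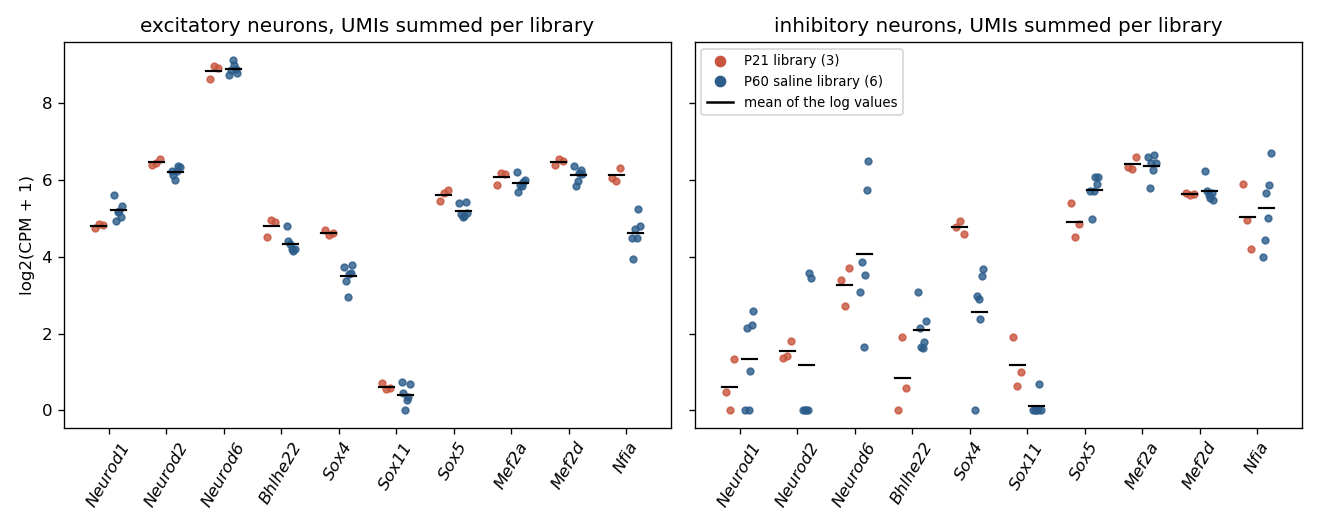
Level of each gene in each library as log2(CPM + 1), in excitatory (left) and inhibitory neurons (right), for 3 P21 and 6 saline P60 libraries. Points are libraries and lines the mean of the log values. In these sums over a whole class, Sox4 lay lower in every P60 library in both classes, Nfia in the excitatory sums only, and Neurod6 spread widely in inhibitory P60 libraries.

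In inhibitory neurons Sox4 fell as well and Sox5 rose, while 4 members (Neurod6, Mef2a, Mef2d and Nfia) did not pass. Of the 6 members tested, 2 were called, 1 higher and 1 lower, where 14% of 8898 genes tested were called (5.73% higher and 8.29% lower). Sox4 was at 26.7, 29.6 and 23.2 CPM at P21 and at 0 (lowest), 6.68 (median) and 12.0 (highest) CPM at P60, so the ages did not overlap. Its log2 fold change was -1.68 ± 0.29 (adjusted p = 0.000757 by edgeR), a 3.21-fold fall, on 166 UMIs at P21 and 38 at P60. The non-neuronal markers summed to 99.7 to 262 CPM at P21 and 20.6 to 392 CPM at P60 in these sums, and 0 of the 6 that were tested were called.

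Sox5 was at 41.1, 21.8 and 28.2 CPM at P21 and at 30.9, 55.2 and 67.2 CPM at P60, and 1 P60 library lay within the P21 range. Its log2 fold change was 0.89 ± 0.22 (adjusted p = 0.00745), a 1.86-fold rise. The clusters differed in share here too: Inhib_2, nearly without Sox5, was 35.3% ± 2.90 of inhibitory neurons at P21 and 7.60% ± 4.66 at P60, while Inhib_7 was 8.25% ± 4.94 and 31.5% ± 9.69 and Inhib_9 6.55% ± 2.60 and 16.3% ± 7.31, none of them overlapping. Inhib_6, which held Sox5 at 59.5 CPM at P21, moved the other way, from 16.33% ± 6.19 to 2.36% ± 3.17 and also without overlap. The part of these shares in the rise of Sox5 was not tested. Of the 3 inhibitory clusters compared between ages, Sox5 had a lower mean at P60 in 2 and a higher mean in 1. Only in Inhib_7 did Sox5 pass the low-count filter, with a log2 fold change of 0.24 ± 0.29 (adjusted p = 0.768 by edgeR). With cells thinned to 2000 UMIs, 0 of 4 members tested were called, Sox5 was at 0.74 (adjusted p = 0.0608) and Sox4 was too low for the test.

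Neurod6 in inhibitory neurons was at 9.57, 5.59 and 12.1 CPM at P21 and at 2.16, 12.1 and 89.9 CPM (lowest, median, highest) at P60. The high values came from the saline libraries of 15 days of withdrawal, at 53.0 and 89.9 CPM, in which Slc17a7 was also highest among the inhibitory sums of the saline libraries (69.4 and 66.9 CPM, against 0 to 21 CPM in the other 4). The log2 fold change of 2.02 ± 0.85 did not pass (adjusted p = 0.142) and was 1.39 without the second of these libraries, and the part of excitatory RNA in it was not tested. Neurod6 had a UMI in 5.51% of inhibitory neurons at P21 and 13.14% at P60, and in cells thinned to 2000 UMIs in 2.46% and 5.68%, beside 2.50% and 2.27% of thinned endothelial cells. Nfia was at 59.0, 30.2 and 17.6 CPM at P21 and at 14.9, 40.6 and 104 CPM at P60 (0.57 ± 0.53, adjusted p = 0.504). Leaving out 1 library gave log2 fold changes of 0.18 to 1.21, the latter without the first P21 library (adjusted p = 0.165). Inhib_7, the inhibitory cluster with most Nfia at P60 (87.2 CPM), was 8.25% of inhibitory neurons at P21 and 31.5% at P60. Within Inhib_7 Nfia was called lower (-1.24 ± 0.29, adjusted p = 0.0233 by edgeR). The part of the shares in the class value was not tested.

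Mef2a (80.1, 77.6 and 97.2 CPM at P21, median 86.7 CPM at P60) and Mef2d (49.8, 48.0 and 49.4 CPM, median 48.8 CPM) had log2 fold changes of -0.02 each in inhibitory neurons, with adjusted p of 0.965 and 0.953. Neurod1, Neurod2, Bhlhe22 and Sox11 were too low for the test there.

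The difference between the classes was tested as an interaction across 12196 genes, of which 11.1% passed an adjusted p of 0.05, and 2 of the 9 members tested did. The change of Sox5 was higher in inhibitory than in excitatory neurons by 1.24 ± 0.25 on the log2 scale (adjusted p = 0.00386). That of Bhlhe22 was higher by 2.08 ± 0.70 (adjusted p = 0.0438), but on 6 P21 and 13 P60 UMIs in inhibitory neurons, and it lost the call when any of 5 libraries was left out (adjusted p of 0.0521 to 0.186). Its size ran from 1.51 without the first to 4.03 without the second P21 library. For Sox4 the difference was -0.60 ± 0.29 (adjusted p = 0.202), and for Nfia 1.87 ± 0.54 (adjusted p = 0.0733), or 2.52 (adjusted p = 0.0322) without the first P21 library. Cluster shares differed between the ages in both classes, and their part in these differences was not tested.

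Within clusters, ages were compared for the 26 excitatory clusters and for Inhib_2, Inhib_7 and Inhib_9, which had at least 2 libraries of each age, with p adjusted within each cluster. Of 184 pairs of a member and a cluster that passed the low-count filter, 15 were called, all of them lower at P60. Of 180149 pairs of a gene and a cluster 10.6% were called, so members were not called more often than all genes. Pairs of all genes were not counted by direction, so the direction of the member calls has no share beside it. The calls fell to Sox4 (7), Bhlhe22 (3), Nfia (4) and Sox5 (1), and Neurod1, Neurod2, Neurod6, Mef2a and Mef2d had none. Without the first saline library of 15 days of withdrawal 8 pairs were called, and without the second saline library of 48 h of withdrawal 9. Without the low-count filter 23 of 285 pairs were called, 22 lower and 1 higher.

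Sox4 had a lower mean at P60 in 26 of 26 excitatory clusters and in the 3 inhibitory clusters, passed the filter in 13 excitatory ones and was called in 7. The largest changes among the called clusters were in Exc_22 (-1.98 ± 0.35, adjusted p = 0.00023), Exc_18 (-1.90 ± 0.41, adjusted p = 0.00672) and Exc_20 (-1.79 ± 0.53, adjusted p = 0.037). In Exc_21, which had the highest P21 level among these 7 clusters, Sox4 was at 51.0 ± 2.94 CPM at P21 (n = 3) and 19.2 ± 5.35 CPM at P60 (n = 6). The filter can keep a cluster through its P21 libraries alone, so the count of 7 was not read as a share of clusters.

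Bhlhe22 had a lower mean at P60 in 25 of 26 excitatory clusters and was called in Exc_10 (-1.32 ± 0.40), Exc_22 (-1.27 ± 0.28) and Exc_25 (-1.02 ± 0.26). In Exc_22 it was at 37.4 ± 3.10 CPM at P21 (n = 3) and 13.5 ± 3.27 CPM at P60 (n = 5). Nfia had a lower mean at P60 in 25 of 26 excitatory clusters as well and was called in Exc_7, Exc_9 and Exc_25 (-1.13, -1.51 and -1.11), where it was at 19.3 to 40.3 CPM at P21, and in Inhib_7 (-1.24 ± 0.29), where it was at 223 ± 17.9 CPM at P21 (n = 3) and 94.9 ± 47.0 CPM at P60 (n = 4). In the clusters with most Nfia it was not called, with log2 fold changes of -0.11 ± 0.16 in Exc_20, -0.34 ± 0.23 in Exc_18 and -0.20 ± 0.15 in Exc_19. Sox5 was called in Exc_25 alone (-0.60 ± 0.17). In that cluster 4 of the 9 members tested were called, beside 1824 of all 8868 genes tested there, the highest number of genes called in any cluster. Lower means at P60 were also found for Mef2d in 25 and for Neurod2 in 22 of the 26 excitatory clusters, neither with a call. For Neurod1, Neurod6, Sox5, Sox11 and Mef2a they were found in 10 to 17. The clusters come from the same libraries, so these counts are not independent, and none was made over all genes.

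**Figure D4:**
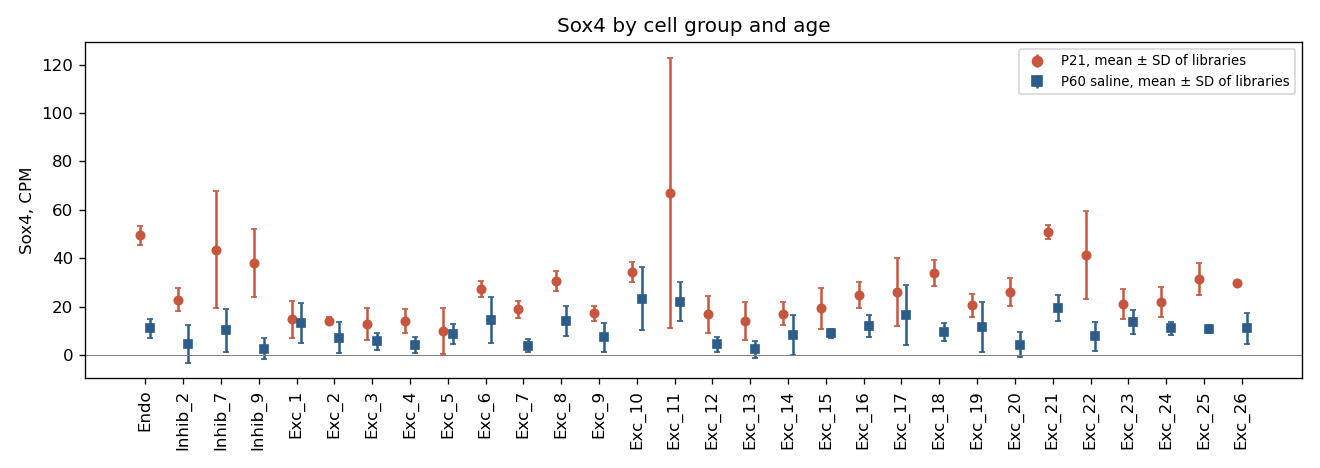
Level of Sox4 (CPM, mean and SD over libraries with at least 10 cells) in endothelial cells and in each neuronal cluster compared, at P21 and in saline P60 libraries. Every P21 mean lay above its P60 mean, by the most in Exc_11 (67 against 22.0 CPM, n = 2 at P21, with a wide spread) and by little in Exc_5 (9.95 against 8.68 CPM), where the spreads overlapped.

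Outside neurons, 5 classes had enough cells for the comparison of ages, and 2 of 21 pairs of a member and a class were called, both in endothelial cells. The share of genes called was 12.7% in endothelial cells, 1.11% in astrocytes, 0.726% in microglia, 1.94% in newly formed oligodendrocytes and 17.8% in mature oligodendrocytes. Endothelial Sox4 was at 53.9, 47.5 and 47.0 CPM at P21 and at 7.20, 10.0 and 18.3 CPM (lowest, median, highest) at P60. The log2 fold change of -2.36 ± 0.20 (adjusted p = 2.34e-06 by edgeR) was larger than in either neuronal class, a difference that was not tested.

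Endothelial Nfia was at 189, 170 and 176 CPM at P21 and at 108, 115 and 149 CPM at P60, without overlap (-0.69 ± 0.12, adjusted p = 0.000853). In newly formed oligodendrocytes, where Sox4 was highest, it was at 166, 323 and 307 CPM at P21 and at 399.7, 289, 138.5, 226 and 182 CPM in the 5 P60 libraries with enough cells, and the ages overlapped (-0.22 ± 0.27, adjusted p = 0.776). In astrocytes Sox4 was at 18.2, 87.2 and 122 CPM at P21 and 5.63 to 13.09 CPM in 5 P60 libraries, without overlap, and in mature oligodendrocytes at 10.0, 22.4 and 11.7 CPM and at 0 (lowest), 0.821 (median) and 6.88 (highest) CPM, again without overlap. In neither did it pass the low-count filter, and the part of free RNA shared by all cells was not tested.

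Related genes in excitatory neurons were counted in lists, to be read beside the 8.18% of all genes that rose, the 11.1% that fell and their median log2 fold change of -0.0048. Of the Id and Hes genes, 4 of 8 tested fell and 0 rose (median -0.65), with Id3 (-2.15), Id1 (-2.10) and Hes6 (-1.07) among them. Non-neuronal markers fell in the same sums, and the part of RNA from other cells was not tested. Of the related bHLH factors and E proteins 0 of 5 were called (median -0.28), and of the other nuclear factor I genes 0 of 3 (median 0.08). Of the other Sox genes 3 of 5 fell (median -1.74), Sox2 (-2.54), Sox10 (-2.03) and Sox8 (-1.74), which are known from progenitors and glia and moved with the non-neuronal markers, 16 of 26 of which fell.

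Of 6 partners of Sox5 and Bhlhe22 in projection neurons 4 fell (median -0.94), among them the layer 5 factors Bcl11b (-1.11) and Fezf2 (-1.08) and Zfpm2 (-1.01). Bcl11b and Fezf2 also belong to the layer 5 markers summed above. At P60 they were present in the layer 6 clusters Exc_18 to Exc_20 too, at 101 to 146 and 83.6 to 93.8 CPM. The part of the cluster shares in these falls was not tested. Of the other Mef2 factors and class IIa deacetylases, which repress Mef2 proteins, Hdac4 fell (-0.80) and Hdac7 rose (0.64), with 4 of 6 not passing (median -0.25). Of 12 immature neuron genes 6 fell and 0 rose (median -0.58), with Cd24a (-3.23), the cytoskeletal regulator Marcksl1 (-2.75) and Dpysl5 (-1.89) leading. In inhibitory neurons, where 5.73% of all genes rose and 8.29% fell, 6 of 12 of these also fell, among them Marcksl1 (-1.41). Of the other lists there, 2 of 5 Id and Hes genes fell and 1 rose, 1 of 3 Sox genes fell, 2 of 3 nuclear factor I genes rose, and 0 of 3 bHLH, 0 of 6 Mef2 and deacetylase genes and 0 of 1 partner were called. The nuclear factor I genes were Nfib (1.49) and Nfix (1.38), close relatives of Nfia, named after their values were seen.

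Cocaine and saline were compared at each of 3 time points with 2 libraries a group, the spread being estimated over all 12 P60 libraries. No member was called by edgeR or DESeq2 in excitatory neurons (0 of 27 pairs of a member and a time point) or in inhibitory neurons (0 of 15), where 0.235% and 0.284% of all such gene pairs were called. At an unadjusted p under 0.05 there was 1 member pair in each class, where 651 to 903 of 13171 genes passed that limit per time point in excitatory and 358 to 533 of 8687 in inhibitory neurons. These were Bhlhe22 in excitatory neurons at 48 h (0.53 ± 0.19, adjusted p = 0.977), with 31.0 and 22.6 CPM in the cocaine and 19.1 and 17.4 CPM in the saline libraries, and Nfia in inhibitory neurons at 15 days (-0.64 ± 0.25, adjusted p = 0.46), with 52.8 and 46.8 CPM against 57.3 and 104 CPM. In excitatory neurons the levels of Sox4 (10.5 ± 3.09 CPM with cocaine, 10.5 ± 2.201 with saline) and of Neurod6 (488 ± 33.5 and 479.7 ± 48.6 CPM, SD, n = 6 each) overlapped between treatments.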

How the data were processed

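The authors pooled the PFC tissue of 2 mice per library and counted UMIs with Cell Ranger (written as 13.1 in the submitters' processing notes) against mm9, and they filtered, clustered and named cells with Seurat 2.1.0. The deposited matrices hold raw UMI counts per gene and cell. The deposited table of cells gives the class and cluster of each retained cell and, as a fraction computed by the authors, how much of its UMIs was mitochondrial, a value used here in no test. A joined matrix was not used. How doublets were treated beyond the authors' filters was not examined.

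Matrices were handled with scipy 1.17.1, pandas 2.3.3 and numpy 2.4.6 under python 3.11.15. Of the genes listed, 143 for ribosomal proteins and 13 mitochondrial ones were dropped, leaving 25989. UMIs of a class or cluster were added up in each library, and sums of fewer than 10 cells were left out. Sums were fitted with edgeR 4.0.16 (R 4.3.3) after filterByExpr and TMM, by robust quasi-likelihood with Benjamini-Hochberg adjustment over all genes of a fit, with at least 2 libraries a group. SEs are the log2 fold change divided by the square root of the F statistic. The interaction was fitted with library and class as terms, and the cluster term with limma 3.58.1 and the library as a random effect. The fits were tested on simulated data. Alternatives were DESeq2 1.42.0, its size factors, no filter, no fold limit, each library left out, P21 libraries 2 and 3 summed, all P60 libraries, all genes kept, cells thinned to 2000 UMIs, and neurons with non-neuronal marker UMIs left out. Leaving out cells whose class and cluster differ was chosen after seeing the data.

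All 10 members are named. Of each related list at most the 3 called genes with the largest change are named, and the 2 genes most like each member. The members and lists were chosen with earlier results of these data known. Libraries stand as replicates, and since P21 libraries may share mice, their spread may be partly technical. The UMI totals given per library limit the precision of low genes.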

Additional observations from a re-analysis of the deposited data

Results flagged for a closer look

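In 29 groups of 6 saline P60 libraries, the gap of the highest or lowest library to its nearest neighbour was divided by the whole range. In 5 groups a library stood apart. The rule marks about 1 in 20 groups of normally distributed values, a rate that does not hold for sparse counts. Where the other 5 libraries have 0, 1 UMI stands apart by construction. The count of 5 was therefore not read as more than chance would give. Groups of 3, such as the P21 libraries, were not examined in this way. The first saline library of the maintenance phase, the shallowest of the 15, was the highest in 3 of the 5 groups marked. It held Bhlhe22 at 27.1 CPM in excitatory neurons (next 20.2 CPM), Bhlhe22 at 7.42 CPM in inhibitory neurons, which is 1 UMI (next 4.00 CPM), and Mef2d at 74.2 CPM in inhibitory neurons (next 51.5 CPM). The first saline library of 15 days of withdrawal held Sox11 at 0.609 CPM in inhibitory neurons, again 1 UMI, where the other 5 had 0, and Neurod2 at 10.6 CPM in endothelial cells (next 3.72 CPM).

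The age change differed between inhibitory and excitatory neurons for Sox5, by 1.24 on the log2 scale, and for Bhlhe22, by 2.08, in the interaction test given above. Bhlhe22 was too low for the test in inhibitory neurons alone, with 6 UMIs at P21 and 13 at P60. Its difference ran from 1.51 to 4.03 over left-out libraries and lost its call in several of these fits. For Sox5, the shares of inhibitory clusters differed between the ages, with clusters that held Sox5 moving in both directions. Their part in the difference of Sox5 was not tested.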

How the results depend on the processing

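In excitatory neurons Sox4 and Nfia were called under every alternative but 1, the cluster term, under which Nfia missed the fold limit and Bhlhe22 passed. Leaving out each library gave -1.18 to -1.04 for Sox4 and -1.58 to -1.30 for Nfia. Without the fold limit 6 members passed, 1 higher and 5 lower. Of 171 values for members in this comparison, 168 kept their direction and side of the threshold. The exception in direction was Sox5, at 0.0031 with the cluster term. In inhibitory neurons 97 of 107 did so, and Sox4 and Sox5 were both called in every fit that left out a library. With thinned cells 0 members were called, of 4 tested, and with the cluster term 0 of 1, fewer members being tested in each. Mef2a changed sign with P21 libraries 2 and 3 summed (0.0018), without cells of differing class (0.0070), without neurons with non-neuronal marker UMIs (0.0842) and with the cluster term (0.191), and over left-out libraries it ran from -0.0857 to 0.0937, Mef2d from -0.0513 to 0.0265.

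Without the filter on low counts 4 pairs outside neurons and 23 pairs of a member and a cluster were called. Leaving out a library gave 2 to 3 and 8 to 15 such pairs, the latter falling to 10 without the third P21 library. For the interaction 1 to 3 members passed, Neurod2 passing without the second saline library of 48 h of withdrawal (2.12, adjusted p = 0.00554), and the difference for Mef2a ran from -0.0446 to 0.146. The cluster with the highest level stayed the same for 5 of 10 members in saline libraries alone. The cause of these differences was not tested. No paired analysis was possible because replicate numbers of the P60 libraries only follow their order and name no shared animal, litter or day, and P21 libraries have no P60 partner. Sox11 in every class, and Neurod1, Neurod2 and Bhlhe22 in inhibitory neurons, had too few UMIs to pass the filter on low counts.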
